A study of Mus musculus with 12 samples.

Results

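Ribosome-bound RNA from the inner ear of newborn mice was examined for 10 genes, Dgkk, Aqp6, Pla2g2d, Gpr149, Tdo2, Ddc, Mab21l1, Nap1l5, Lix1 and Nmnat2, out of 29641 genes listed in at least 1 organ. They had been picked because their levels were much higher in the Gfi1 mutant vestibule than in the heterozygous vestibule. Their vestibular values are therefore a description and carry no test, and the cochlea, which was not part of the rule of choice, supplies the test. The genes were chosen with earlier results of these data known, so the cochlear test was not shown to be independent of the choice. A working description of the genes as newly seen in mutants held for only some of them. In heterozygous vestibule 4 genes lay below 1 CPM, a read count scaled to the library total, in all 3 libraries, but Ddc, Nmnat2 and Lix1 were at 1 CPM or more in all 3. None of the 10 genes was at or under 3 reads over the 3 heterozygous vestibular libraries, where their sums ran from 19 to 1496 reads.

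The RiboTag allele replaces a ribosomal protein by an HA-tagged form once Cre recombinase has acted, and an anti-HA antibody then recovers ribosomes, with their transcripts, from those cells. Mutants were Gfi1Cre/Cre;RiboTagHA/HA and heterozygotes were Gfi1Cre/+;RiboTagHA/HA, all at postnatal day 0 to 1, with 3 vestibular and 3 cochlear libraries per genotype and 12 in all. Both genotypes thus carried the tag allele on both chromosomes and at least 1 Cre allele at the Gfi1 locus, and the control was not wild type. Mutants carried Cre on both copies of Gfi1, so the dose of Cre differed with genotype, and any influence of Cre dose on the choice of tagged cells cannot be told apart from loss of Gfi1. The pull-down reached any cell with a history of Cre, so the samples can hold hair cells and other cells. No input library was among the 12, so enrichment for hair cells was not measured. Vestibular libraries were made with the NEBNext Ultra Directional kit and cochlear libraries with the NuGEN Ovation Ultralow kit, so levels were compared within an organ only. In whole-tissue pull-downs of this kind, more cells of a type and more RNA per cell cannot be told apart. The labels call the libraries biological triplicates, and p-values weigh each genotype difference against the spread between libraries of a genotype. Unless a replicate block is named, that spread includes variation shared by libraries of the same replicate number. Values are given in replicate order 1, 2 and 3, means carry the SD over 3 libraries, and each difference is the mutant mean minus the heterozygote mean of log2(CPM + 1), a scale that understates changes of genes at low levels.

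Gfi1 encodes a zinc finger repressor of transcription that hair cells, the receptors of hearing and balance, need to mature and survive. Hair cells are sensory epithelial cells rather than neurons, though they share a presynaptic machinery and several transcription factors with neurons. The 10 genes have no single pathway in common. Dgkk, Pla2g2d, Gpr149 and Aqp6 act in lipid signalling and at membranes, Tdo2, Ddc and Nmnat2 are enzymes of amino acid and nucleotide metabolism, and Mab21l1, Nap1l5 and Lix1 are known mainly from chromatin biology or development.

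Library totals ran from 18951026 to 29370267 reads in the vestibule and from 7531518 to 9363796 in the cochlea, so 1 read was worth 0.0340 to 0.0528 CPM in the vestibule and 0.107 to 0.133 CPM in the cochlea. Gfi1 itself had 236, 198 and 208 CPM in mutant vestibule, against 534, 450 and 483 CPM in heterozygous vestibule. In the cochlea Gfi1 had 75.1, 64.3 and 69.1 CPM in mutants, against 165, 106 and 126 CPM in heterozygotes. The Gfi1 difference was -1.19 (SE 0.13; limma, Benjamini-Hochberg adjusted p = 0.00234) for vestibule and -0.90 (SE 0.16; adjusted p = 0.00355) for cochlea. A value per gene does not show which part of Gfi1 gave these reads. The list of 14 hair cell markers includes Gfi1 itself. Of the 14, 2 were higher in mutant vestibule and 1, Gfi1, was lower (5 and 3 with the replicate number as a block). Their sum, Gfi1 included, was 11002 to 11657 CPM in mutants against 10066 to 11150 CPM in heterozygotes. Of all tested vestibular genes 2.41% were called higher and 1.09% lower. With the replicate block 10.5% of all tested vestibular genes were called higher and 12.8% lower (23.3% in all), and of all cochlear genes 4.21% and 4.31% (8.52% in all). In the cochlea 8 of the 14 markers, Gfi1 among them, were lower (11 lower and 1 higher with the block), where 2.52% of all tested genes were called lower. The marker sum, Gfi1 included, was 3641 to 4354 CPM in mutant cochlea against 5604 to 6758 CPM in heterozygous cochlea. Macrophage markers were present as well, at 6920 to 8112 CPM in mutant and 7298 to 9311 CPM in heterozygous vestibule, with 0 of 12 called, or 3 lower with the block.

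Sequences around the transcription starts were read from RefSeq (GRCm38.p6), as windows from 250 bases before to 50 bases after a start. They covered 8 of the 10 genes with 9 windows, since Ddc has 2, and there was none for Gpr149 and Mab21l1. The windows shown are those with a match to a longer GFI1 motif or an E-box, and both Ddc starts. Capitals mark AATCAC, a form of the site bound by GFI1, and CAGCTG and CAGATG, E-boxes bound by ATOH1 and other bHLH factors, each searched on both strands.
Ddc, upstream start, chr11:11898095-11898394, minus strand: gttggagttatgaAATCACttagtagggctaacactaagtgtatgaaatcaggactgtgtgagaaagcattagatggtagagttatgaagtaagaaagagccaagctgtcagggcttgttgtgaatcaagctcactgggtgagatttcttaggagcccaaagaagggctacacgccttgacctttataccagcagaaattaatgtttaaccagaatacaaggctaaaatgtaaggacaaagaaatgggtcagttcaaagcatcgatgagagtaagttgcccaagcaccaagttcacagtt
Ddc, downstream start, chr11:11890359-11890658, minus strand: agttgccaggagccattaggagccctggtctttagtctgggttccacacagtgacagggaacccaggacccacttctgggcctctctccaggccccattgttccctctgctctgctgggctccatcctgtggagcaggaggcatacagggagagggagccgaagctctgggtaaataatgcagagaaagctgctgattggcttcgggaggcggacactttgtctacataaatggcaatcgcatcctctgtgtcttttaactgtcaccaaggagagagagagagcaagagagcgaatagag
Nap1l5, chr6:58907077-58907376, minus strand: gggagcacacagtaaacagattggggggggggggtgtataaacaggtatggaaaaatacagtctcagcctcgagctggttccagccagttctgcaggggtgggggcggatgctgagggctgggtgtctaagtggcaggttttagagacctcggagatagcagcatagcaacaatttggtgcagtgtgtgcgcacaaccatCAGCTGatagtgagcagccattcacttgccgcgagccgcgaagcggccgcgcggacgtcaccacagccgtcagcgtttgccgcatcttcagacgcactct
Aqp6, chr15:99600950-99601249, plus strand: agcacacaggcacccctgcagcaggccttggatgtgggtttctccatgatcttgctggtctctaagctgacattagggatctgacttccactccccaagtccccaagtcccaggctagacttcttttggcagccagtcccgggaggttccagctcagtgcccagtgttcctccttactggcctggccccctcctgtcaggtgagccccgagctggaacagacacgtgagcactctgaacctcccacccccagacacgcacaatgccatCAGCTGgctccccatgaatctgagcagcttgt
The upstream Ddc window holds AATCAC at position -237 from the start, inside the longer AAATCAC. The Nap1l5 window holds CAGCTG at -50 and the Aqp6 window at 18. Across 32851 mouse windows of the same length, AATCAC occurred in 10.4%, AAATCAC in 3.2%, CAGCTG in 16.3% and CAGATG in 17.2%. Among the 9 windows of these genes AATCAC occurred in 1, CAGCTG in 2 and CAGATG in 0. The short GFI1 core AATC, contained in AATCAC, was in 7 of the 9 windows and in 73.1% of all windows. The TATA box core TATAAA was in 3 of the 9 and in 13.6% of all. These matches are letters in a window and were not tied to binding or to the RNA values. Ddc is known from human and rat to use separate starts in neurons and in other tissues, and the deposited CPM, 1 value per gene, cannot separate them.

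In the vestibule all 3 mutant libraries lay above all 3 heterozygous libraries for each of the 10 genes. Across all 15595 genes tested in the vestibule, 10.7% had mutant libraries fully above heterozygous ones and 2.41% were called higher, and because the choice of genes rests on this contrast nothing is read from the 10. The ratio of mutant to heterozygous mean CPM ran from 5.35 for Nmnat2 to 79.8 for Mab21l1. On the log2(CPM + 1) scale the differences ran from 2.37 to 5.33 with a median of 4.07, beside a median of -0.06 over all tested genes. The filter for testing asked for at least 1 CPM in at least 3 of 6 libraries. All 10 genes passed it in the vestibule, but 7 did so through the mutant libraries alone, so their difference was in part built into the filter.

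**Figure D1:**
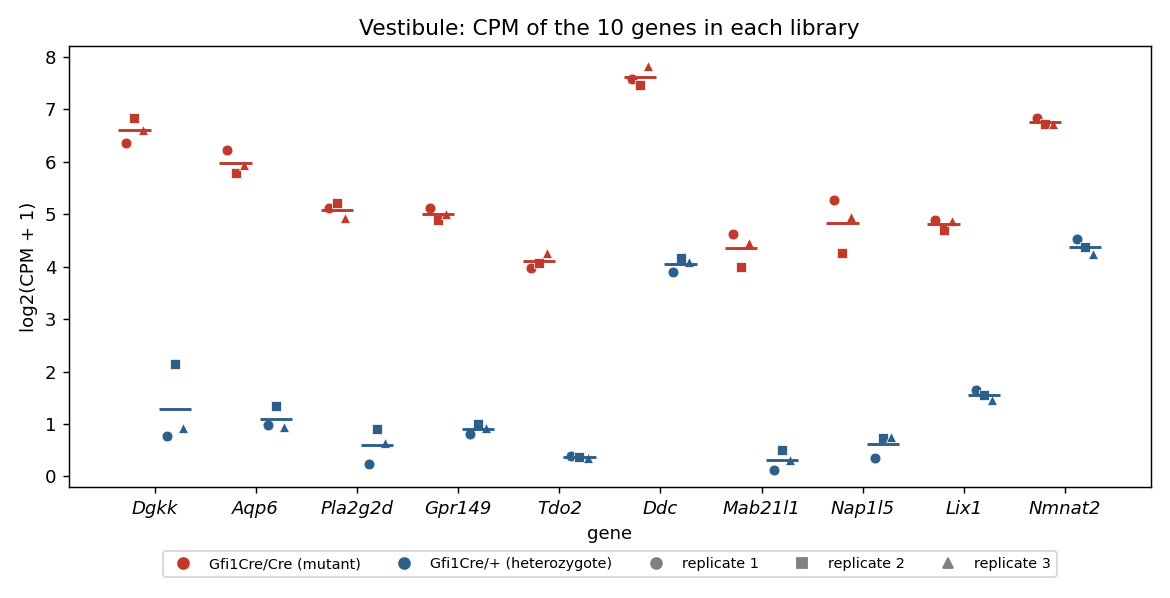
Log2(CPM + 1) of the 10 genes in each vestibular library, mutants in red to the left of heterozygotes in blue, with a bar at the mean of each 3 libraries and a marker shape per replicate. For every gene the 3 mutant points lie above the 3 heterozygous points, and Ddc, Nmnat2 and Lix1 stand clear of the bottom of the axis in heterozygotes.

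Among the lipid and membrane genes, Dgkk encodes a diacylglycerol kinase, which turns the second messenger diacylglycerol into phosphatidic acid. Dgkk had 81.5, 114 and 96.5 CPM in mutant vestibule, against 0.714, 3.44 and 0.885 CPM in heterozygous vestibule. The means were 97.4 ± 16.3 CPM in mutants and 1.68 ± 1.53 CPM in heterozygotes (SD, n = 3 each), a ratio of 58.0, and the log2 difference of 5.33 (SE 0.36) was the largest of all genes tested in the vestibule on the log2(CPM + 1) scale. By edgeR, Mab21l1 (6.33) and Pla2g2d (5.97) exceeded Dgkk (5.90), so the order turns with the scale. Heterozygote replicate 2 was high among its group, yet the lowest mutant still had 23.7 times its CPM. Pla2g2d encodes a secreted phospholipase A2 known from dendritic cells and macrophages, which releases fatty acids from phospholipids. For Pla2g2d the mutants had 33.7, 36.2 and 29.5 CPM, against 0.179, 0.881 and 0.545 CPM in heterozygotes, from 2212 reads in mutants and 41 in heterozygotes. The groups lay far apart, with a log2 difference of 4.50 (SE 0.24). Of 9 tested markers of dendritic cells, 3 (H2-Ab1, H2-Eb1 and Cd74) were called lower and 0 higher (4 lower with the replicate block). For 1 of the 9 all mutant libraries lay above all heterozygous libraries and for 3 all lay below, against 10.7% and 11.6% of all tested genes. Of all tested vestibular genes 1.09% were called lower, or 12.8% with the block. The dendritic cell markers summed to 84.9 to 119 CPM in mutants and 147 to 184 CPM in heterozygotes, and no marker on that list was at 0 throughout. The part of such cells in the Pla2g2d value was not tested.

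Gpr149 encodes a G protein-coupled receptor with no known ligand. It had 34.0, 28.8 and 31.1 CPM in mutant vestibule, against 0.759, 1.01 and 0.885 CPM in heterozygous vestibule. Its spread was small in both genotypes, at 31.3 ± 2.58 CPM in mutants and 0.884 ± 0.124 CPM in heterozygotes, and the log2 difference was 4.10 (SE 0.19). Aqp6 encodes a water and anion channel known from vesicles of acid-secreting kidney cells. Mutant libraries held 74.1, 54.5 and 60.3 CPM of Aqp6, against 0.982, 1.55 and 0.919 CPM in heterozygotes. The lowest mutant library was 35.1 times the highest heterozygous library, and the log2 difference of 4.89 (SE 0.21) held rank 3 of all tested genes.

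Among the enzymes, Tdo2, tryptophan dioxygenase, opens the kynurenine route of tryptophan breakdown and is best known from liver. Tdo2 had 14.8, 15.8 and 18.3 CPM in mutant vestibule, against 0.312, 0.294 and 0.272 CPM in heterozygous vestibule. That is 1099 reads in mutants against 22 in heterozygotes, with a log2 difference of 3.74 (SE 0.21). Both genotypes were tight and the lowest mutant was 47.5 times the highest heterozygote. Ddc encodes the aromatic amino acid decarboxylase, which makes dopamine and serotonin from their precursors. It was the most abundant of the 10 in read number, with 191, 175 and 226 CPM in mutants against 14.0, 17.0 and 16.1 CPM in heterozygotes. The means of 197 ± 26.2 CPM in mutants and 15.7 ± 1.55 CPM in heterozygotes gave a ratio of 12.6 and a log2 difference of 3.57 (SE 0.15). Nmnat2 makes NAD in axons, where its short-lived protein holds off axon degeneration. For Nmnat2 the mutants had 113, 104 and 104 CPM, against 22.1, 19.7 and 18.0 CPM in heterozygotes. This was the smallest of the 10 vestibular differences, 2.37 (SE 0.13), and the gene was already well above 1 CPM in heterozygotes.

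Among the remaining genes, Mab21l1 encodes a relative of the DNA sensor cGAS that is needed for eye development. It had 23.8, 15.0 and 20.8 CPM in mutant vestibule, against 0.0893, 0.419 and 0.238 CPM in heterozygous vestibule. Those are 1312 reads in mutants against 19 in heterozygotes, and the log2 difference was 4.05 (SE 0.25). Nap1l5 is an intronless member of the nucleosome assembly protein family, expressed from the paternal allele. Mutants had 37.4, 18.3 and 29.7 CPM of Nap1l5, against 0.268, 0.671 and 0.681 CPM in heterozygotes. It was among the more variable of the 10 in mutants, where replicate 2 had less than the other replicates, and its log2 difference was 4.21 (SE 0.29). Lix1, named for its expression in the chick limb, had 28.7, 25.1 and 28.1 CPM in mutants, against 2.14, 1.93 and 1.74 CPM in heterozygotes. Lix1 lay above 1 CPM in all heterozygous libraries, and its log2 difference was 3.27 (SE 0.19).

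The 10 genes were not the only large differences in the vestibule. They held ranks 1 to 30 of all tested genes by size of the rise, and 20 other genes lay among the first 30. Gfy (5.18) ranked just after Dgkk and St18 (4.18) just after Nap1l5; both were named after their values were seen. Of those 20 genes 19 were tested in the cochlea, where 12 were called higher, against 1.90% of all tested cochlear genes. Per kilobase of exon, Ddc had the highest mean of the 10 in mutant vestibule, 44.2 ± 5.88 CPM per kb, followed by Aqp6 at 26.0 ± 4.16 and Nmnat2 at 18.5 ± 0.929 CPM per kb. Nmnat2, Nap1l5, Pla2g2d and Dgkk overlapped in turn, as did Mab21l1, Lix1 and Gpr149, and Tdo2 was lowest at 4.20 ± 0.457 CPM per kb. In heterozygous vestibule Ddc and Nmnat2 led, at 3.52 and 3.45 CPM per kb with overlapping libraries, and Tdo2 was again lowest at 0.0755 CPM per kb. Within mutants, replicate 2 was lowest for 6 of the 10 genes and replicate 1 highest for 6. Within heterozygotes it was replicate 1 that was lowest for 6 and replicate 2 highest for 6.

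The cochlea, which was not part of the rule of choice, gave the test, with the limit that earlier results of these data were known. Of the 10 genes 6 rose in mutant cochlea and 0 fell (limma, Benjamini-Hochberg adjusted p under 0.05), where 1.90% of 17985 tested genes were called higher and 2.52% lower. Without the 3 genes that entered the cochlear test through the mutant libraries alone (Aqp6, Pla2g2d and Tdo2), 4 of 7 rose. Such calls were not particular to the 10, as 12 of 19 other genes with large vestibular rises were also called higher. Dgkk, Pla2g2d, Mab21l1, Nmnat2, Aqp6 and Nap1l5 passed the threshold, and Lix1, Tdo2, Ddc and Gpr149 did not. For 7 of the 10 all mutant libraries lay above all heterozygous libraries, against 9.74% of all tested genes, and for 0 of the 10 all mutant libraries lay below (7.77% of all). The median log2 difference of the 10 was 1.17, beside 0.05 over all tested genes. The count of 7 includes Aqp6 and Pla2g2d. Neither that count nor the median was redone without the 3 genes that entered through the mutant libraries alone. All 10 passed the filter on low values, and passing it only through the mutant libraries favours a difference. Of the 3 genes that passed in this way, Aqp6 and Pla2g2d were called and Tdo2 was not. Leaving out mutant replicate 2, which had the highest value for 7 of the 10 genes among mutants, left 3 called, and leaving out heterozygote replicate 1 left 4.

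**Figure D2:**
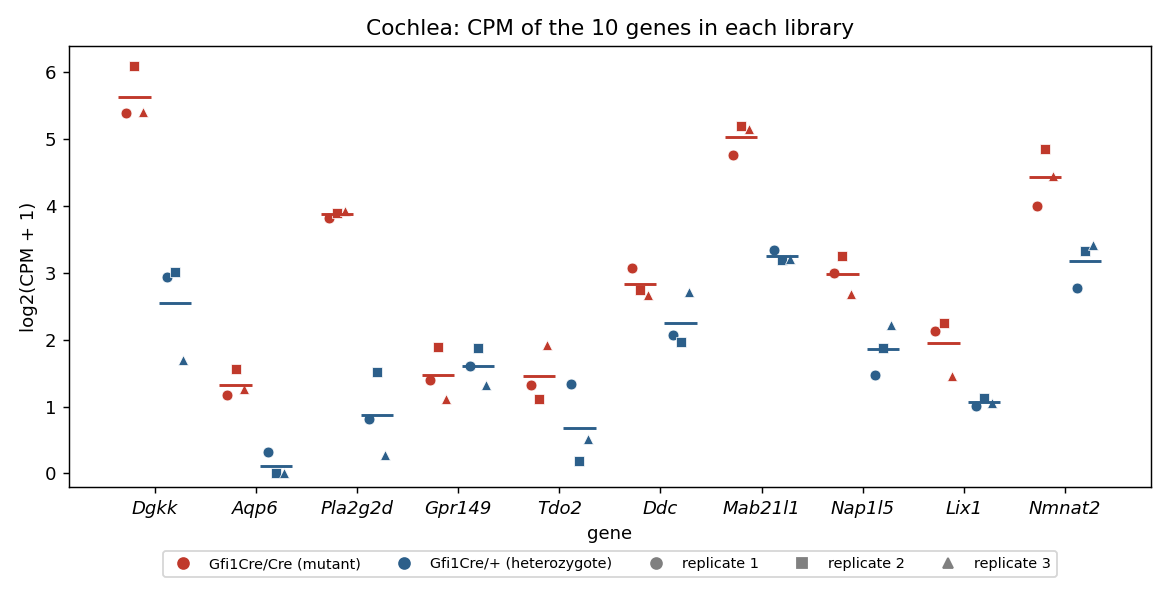
Log2(CPM + 1) of the 10 genes in each cochlear library, drawn as for the vestibule with mutants in red to the left of heterozygotes in blue. Dgkk, Pla2g2d and Mab21l1 show wide gaps between genotypes, while the points of Gpr149, Tdo2 and Ddc overlap.

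Dgkk had 40.6, 66.7 and 41.1 CPM in mutant cochlea, against 6.61, 7.04 and 2.24 CPM in heterozygous cochlea. The log2 difference was 3.08 (SE 0.32; limma, Benjamini-Hochberg adjusted p = 6.17e-05). Every mutant library exceeded every heterozygous library at least 5.77-fold. Pla2g2d had 13.1, 13.8 and 14.2 CPM in mutants, against 0.762, 1.86 and 0.214 CPM in heterozygotes, from 335 reads in mutants and 22 in heterozygotes. It rose by 3.01 (SE 0.30; limma, Benjamini-Hochberg adjusted p = 4.89e-05), with mutants very close to each other and heterozygotes scattered near the level of a few reads. Pla2g2d had entered this test through the mutant libraries alone, so its difference was in part built into the filter. Dendritic cell markers summed to 91.5 to 128 CPM in mutant cochlea and 95.9 to 120 CPM in heterozygous cochlea, and 0 of the 7 tested were called. Macrophage markers summed to 2805 to 3389 CPM in mutants and 2342 to 2895 CPM in heterozygotes. Of these 1 of 12 (Lyz2) was higher, against 1.90% of all tested genes called higher. Mab21l1 had 26.0, 35.4 and 34.3 CPM in mutants, against 9.15, 8.10 and 8.22 CPM in heterozygotes. Mab21l1 was well counted in all heterozygous cochlear libraries, with the highest mean per kilobase of the 10 genes, 12.8 CPM per kb in mutants and 3.41 CPM per kb in heterozygotes. Some of its exon bases are shared with Nbea, a gene on the opposite strand, and reads from those bases cannot be assigned to either gene. The Mab21l1 log2 difference was 1.78 (SE 0.19; limma, Benjamini-Hochberg adjusted p = 7.42e-05). Dgkk, Pla2g2d and Mab21l1 passed the threshold under all 17 alternatives tried.

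The other 3 calls were less firm. Nmnat2 had 15.0, 27.9 and 20.7 CPM in mutant cochlea, against 5.84, 9.03 and 9.61 CPM in heterozygous cochlea. The groups did not overlap and the log2 difference was 1.26 (SE 0.25; limma, Benjamini-Hochberg adjusted p = 0.00924), but it missed the threshold without heterozygote replicate 1 (0.0516) or mutant replicate 2 (0.0688). Nap1l5 had 7.00, 8.52 and 5.44 CPM in mutants, against 1.78, 2.66 and 3.63 CPM in heterozygotes. Its difference of 1.13 (SE 0.27; limma, Benjamini-Hochberg adjusted p = 0.0301) missed the threshold without any one of heterozygote replicates 1 (0.149) or 2 (0.0798) or mutant replicates 1 (0.111) or 2 (0.151). Aqp6 was at the edge of detection, with 10, 15 and 12 reads in mutants (1.25, 1.94 and 1.39 CPM), against 2, 0 and 0 reads in heterozygotes (0.254, 0 and 0 CPM). The Aqp6 difference of 1.22 (SE 0.26; limma, Benjamini-Hochberg adjusted p = 0.0147) rests on those few reads, moves with the pseudocount and belongs to a gene that entered the test through the mutant libraries alone. Without mutant replicate 2 its adjusted p was 0.0835.

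Lix1, Tdo2, Ddc and Gpr149 did not pass the test in the cochlea. Lix1 had 3.37, 3.74 and 1.74 CPM in mutant cochlea, against 1.02, 1.19 and 1.07 CPM in heterozygous cochlea. The groups did not overlap, on 8 to 29 reads a library, and the log2 difference was 0.88 (SE 0.28; limma, Benjamini-Hochberg adjusted p = 0.124). Tdo2 had 1.50, 1.16 and 2.78 CPM in mutants, against 1.52, 0.133 and 0.427 CPM in heterozygotes, with heterozygote replicate 1 inside the mutant range. Its difference was 0.77 (SE 0.34; limma, Benjamini-Hochberg adjusted p = 0.357) on 45 reads in mutants and 17 in heterozygotes. Ddc had 7.37, 5.68 and 5.33 CPM in mutants, against 3.18, 2.92 and 5.55 CPM in heterozygotes, and heterozygote replicate 3 fell among the mutants. The Ddc difference was 0.57 (SE 0.27; limma, Benjamini-Hochberg adjusted p = 0.421). Gpr149 had 1.62, 2.71 and 1.16 CPM in mutants, against 2.03, 2.66 and 1.50 CPM in heterozygotes. Those values overlapped almost fully, at 44 reads in mutants against 50 in heterozygotes, with a difference of -0.13 (SE 0.29; limma, Benjamini-Hochberg adjusted p = 0.950).

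**Figure D3:**
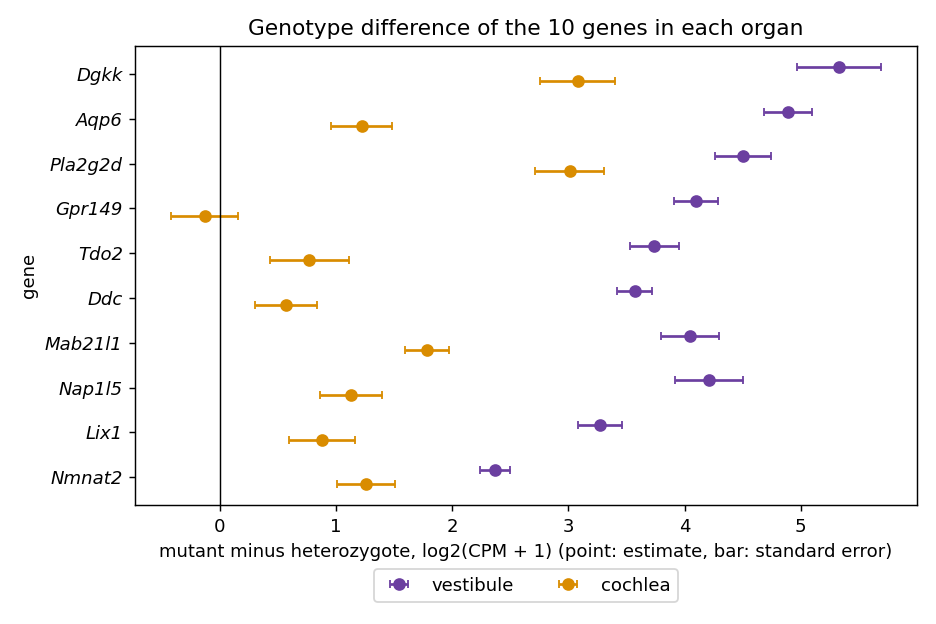
Mutant minus heterozygote difference of each of the 10 genes on the log2(CPM + 1) scale, vestibule in purple and cochlea in orange, with limma's standard error as the bar. Every vestibular point lies to the right of its cochlear point, a feature that the choice of genes on the vestibule favours, and Gpr149 stands at 4.10 in the vestibule and -0.13 in the cochlea.

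Side by side, the vestibular and cochlear differences were 5.33 and 3.08 for Dgkk, 4.50 and 3.01 for Pla2g2d, and 4.05 and 1.78 for Mab21l1. They were 4.10 and -0.13 for Gpr149, 3.57 and 0.57 for Ddc, and 3.74 and 0.77 for Tdo2. Because the genes were picked on the vestibular difference, and the library kit differed with organ, the gap between organs was not tested for them. The order of the genes also differed. Per kilobase, Mab21l1, Dgkk and Pla2g2d led in mutant cochlea at 12.8, 6.91 and 6.12 CPM per kb, and Gpr149 was lowest at 0.427 CPM per kb. Ddc, first in mutant vestibule, held rank 6 in mutant cochlea at 1.37 CPM per kb.

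The loci lay on several chromosomes, with Mab21l1, Gpr149 and Tdo2 all on chromosome 3, by coordinates from GENCODE M21 on GRCm38. Dgkk lies at chrX:6779306-6948363 on the plus strand, Aqp6 at chr15:99601400-99605477 (plus), and Pla2g2d at chr4:138775735-138782046 (plus). Gpr149 lies at chr3:62529077-62605140 (minus), Tdo2 at chr3:81957090-81976202 (minus), and Ddc at chr11:11814101-11898144 (minus). Mab21l1 lies at chr3:55782510-55785001 (plus), Nap1l5 at chr6:58905233-58907076 (minus), Lix1 at chr17:17402672-17459387 (plus), and Nmnat2 at chr1:152954993-153119261 (plus). Mab21l1 is a single exon inside the span of Nbea, a scaffold gene of membrane traffic on the opposite strand, and shares 981 of its 2492 exon bases (39.4%) with Nbea exons. The strand setting of the counting was not given, so reads from those bases cannot be assigned to either gene. Nbea had 167, 211 and 234 CPM in mutant vestibule, against 115, 169 and 168 CPM in heterozygous vestibule, a difference of 0.44 (SE 0.19; limma, Benjamini-Hochberg adjusted p = 0.306). With the replicate number as a block that adjusted p was 0.00101. Heterozygous vestibule, with 115 to 169 CPM of Nbea, held at most 0.419 CPM of Mab21l1. In the cochlea Nbea had 491, 520 and 526 CPM in mutants, against 453, 467 and 509 CPM in heterozygotes (0.11, adjusted p = 0.868, limma). Heterozygous cochlea, with 453 to 509 CPM of Nbea, held 8.10 to 9.15 CPM of Mab21l1. The part of Nbea reads in the Mab21l1 values was not tested in either organ.

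Nap1l5 is also a single exon, placed in an intron of Herc3, a ubiquitin ligase gene on the opposite strand, with 0 exon bases shared. Herc3 had 58.8, 56.5 and 56.2 CPM in mutant vestibule, against 74.0, 69.2 and 74.1 CPM in heterozygous vestibule, with every mutant below every heterozygote. The difference of -0.34 (SE 0.12) did not pass (limma, Benjamini-Hochberg adjusted p = 0.193), but did with the replicate block (0.0146). Ddc, Lix1 and Nmnat2 overlap the span of an antisense RNA gene each, 1700042O10Rik, Gm26873 and Gm28960, with 0 exon bases shared. Of the nearest listed protein-coding genes on either side of the 10, 17 of 20 were tested in the vestibule and 0 were called, against 3.50% of all tested genes, with a median difference of 0.04. With the replicate block 4 of the 17 were called there, Mme and Fignl1 lower and Grb10 and Dclk1 higher, a share near the 23.3% of all tested genes called with the block. Ctso, a cysteine protease gene 365 bases from Tdo2, had 40.8 CPM in mutant and 33.9 CPM in heterozygous vestibule (0.27, limma adjusted p = 0.499). In the cochlea 2 of 16 tested neighbours rose and 0 fell, against 1.90% of all tested genes called higher. With the block 4 of the 16 were higher, against 4.21% of all, adding Ctso (block adjusted p = 0.0312) and Dclk1 (0.0117). Racgap1, a cytokinesis gene beside Aqp6, had a mean of 40.2 CPM in mutants and 19.6 CPM in heterozygotes (1.00, SE 0.16, limma adjusted p = 0.00195). Grb10, an adaptor of insulin signalling beside Ddc, averaged 572 CPM in mutants and 385 CPM in heterozygotes (0.57, SE 0.14, limma adjusted p = 0.0315), and lost its call under 6 of 17 alternatives (up to 0.161).

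Over the family, pathway and imprinted gene lists, without the 10 genes, 4 of 75 tested genes were called in the vestibule and 8 of 78 in the cochlea, against 3.50% and 4.41% of all tested genes. With the replicate block these counts were 27 and 12, against 23.3% and 8.52%. Without the 10 genes, 0 of 8 tested diacylglycerol kinases were called in the vestibule, with a median difference of -0.15 beside -0.06 over all genes. In the cochlea 1 of 9 was called, Dgkg, a calcium-responsive kinase, which fell to 5.85 ± 1.47 CPM in mutants against 19.0 ± 3.54 CPM in heterozygotes (-1.56, SE 0.23; limma, Benjamini-Hochberg adjusted p = 0.000985). Vestibular Dgkg averaged 36.5 CPM in mutants and 28.6 CPM in heterozygotes (0.35, limma adjusted p = 0.268, and 0.0433 with the replicate block). Of the other aquaporins 0 of 4 tested were called in the vestibule and 0 of 3 in the cochlea, or 1 higher and 1 lower in the vestibule with the block. Aqp5, which neighbours Aqp6, averaged 3.77 CPM in mutant and 2.31 CPM in heterozygous vestibule (0.56, limma adjusted p = 0.422). Of the other secreted phospholipases A2, 0 of 4 and 0 of 3 were called. For the families of Mab21l1 and Lix1 together the counts were 0 of 5 in each organ, with 1 lower in the vestibule with the block.

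Tdo2 acts on tryptophan and Ddc on its hydroxylated product. Among the other genes of tryptophan breakdown 0 of 5 were called in the vestibule and 0 of 7 in the cochlea, with medians of -0.11 and 0.29. Kynu, a later enzyme of that route, was called higher in the cochlea with the replicate block (adjusted p = 0.0466). Kmo, another, averaged 3.04 CPM in mutant and 3.51 CPM in heterozygous vestibule. Genes that make, carry and break down monoamines are a list of their own. In the vestibule 2 of 12 fell, where 1.09% of all tested genes were called lower, and 0 rose, with a median of -0.73, and in 8 of the 12 every mutant value lay below every heterozygous value, against 11.6% of all tested genes. Slc6a4, the serotonin transporter, fell to 4.50 ± 1.34 CPM in mutants against 23.7 ± 5.94 CPM in heterozygotes (-2.17, SE 0.27; limma, Benjamini-Hochberg adjusted p = 0.00422). Maob, a monoamine oxidase, fell to 3.71 ± 0.521 CPM in mutants against 16.8 ± 3.13 CPM in heterozygotes (-1.91, SE 0.22; limma, Benjamini-Hochberg adjusted p = 0.00305). Ddc itself averaged 197 CPM in mutants and 15.7 CPM in heterozygotes, while Th, which supplies the precursor of dopamine, averaged 0.358 CPM in mutants and 0.0568 CPM in heterozygotes. With the replicate block 1 of the 12 was higher and 8 lower. In the cochlea 0 of 12 were called, and 1, Maoa, was called higher with the block (adjusted p = 0.0336).

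For the NAD list of Nmnat2, 0 of 9 other genes were called in the vestibule, with a median of -0.18, and 1 higher and 2 lower with the replicate block. Sarm1, which drives the axon degeneration that Nmnat2 restrains, averaged 22.1 CPM in mutants and 12.7 CPM in heterozygotes (0.73, limma adjusted p = 0.132, and 0.00405 with the block). Nmnat3, a related enzyme of mitochondria, averaged 8.52 CPM in mutant and 15.4 CPM in heterozygous vestibule (-0.80, limma adjusted p = 0.0925, and 0.00296 with the block). In the cochlea Nmnat3 was the 1 of 9 called, at 6.70 ± 1.50 CPM in mutants against 14.2 ± 2.83 CPM in heterozygotes (-0.98, SE 0.24; limma, Benjamini-Hochberg adjusted p = 0.0299). It missed the threshold under 7 of 17 alternatives (up to 0.174), among them leaving out any library but heterozygote replicate 2. In the cochlea, Nmnat2 was thus called higher and Nmnat3 lower in mutants.

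Among the genes of these lists, Nap1l2 alone was called higher in both organs. It is an X-linked intronless relative of Nap1l5 known from neurons, and was the 1 of 10 of its family called in each. It averaged 10.7 ± 0.690 CPM in mutant and 1.04 ± 0.768 CPM in heterozygous vestibule (2.59, SE 0.31; limma, Benjamini-Hochberg adjusted p = 0.00371). With that mean and SD, not every heterozygous vestibular library can have reached 1 CPM. Nap1l2 thus entered the vestibular test through the mutant libraries, and that difference was in part built into the filter. Its cochlear values averaged 6.24 ± 1.89 CPM in mutants and 2.12 ± 1.18 CPM in heterozygotes (1.27, SE 0.33; limma, Benjamini-Hochberg adjusted p = 0.0463). The cochlear call was lost under 9 of 16 alternatives, including both rescalings, edgeR and the removal of heterozygote replicate 1 or any mutant library (up to 0.221). Nap1l1 and Nap1l4, the broadly expressed relatives, had differences between -0.05 and 0.09 over both organs, none past the threshold.

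Nap1l5 also belongs to the imprinted genes expressed from the paternal allele. Of 18 others tested in the vestibule 0 rose and 1 fell, Inpp5f, imprinted for some transcripts (-0.67, SE 0.14; limma, Benjamini-Hochberg adjusted p = 0.0388), and the list median was -0.17. The Inpp5f call was lost when any library was left out, up to 0.157, and with the replicate block 4 of the 18 were higher and 6 lower, against 10.5% and 12.8% of all tested genes. In the cochlea 4 of 20 rose and 1 fell, against 1.90% and 2.52% of all tested genes, with a median of 0.18, and with the block 6 were higher and 1 lower. Usp29 averaged 10.4 ± 2.79 CPM in mutants and 0.853 ± 0.343 CPM in heterozygotes (2.61, SE 0.28; limma, Benjamini-Hochberg adjusted p = 7.6e-05). With a heterozygote mean under 1 CPM, Usp29 entered the test through the mutant libraries, so its difference was in part built into the filter. Plagl1, a zinc finger regulator of growth, rose by 1.42 (SE 0.16), Ndn by 1.19 (SE 0.21) and Zdbf2 by 0.93 (SE 0.17). Peg10, a retrotransposon-derived gene, fell by 0.96 (SE 0.15). Of these 4, Zdbf2 had the highest adjusted p (limma, Benjamini-Hochberg, 0.00463) and lost its call in the fit of all 12 libraries (0.0981).

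Because Nmnat2, Ddc and several of the others are known from neurons, markers of ganglion neurons were set beside them. In the vestibule 3 of 9 tested markers were higher (Nefl, Nefm and Calca) and 1 lower (Ntrk2), or 3 and 2 with the block, and the list summed to 2340 to 2403 CPM in mutants and 1462 to 1677 CPM in heterozygotes. Of all tested vestibular genes 2.41% were called higher and 1.09% lower, or 10.5% and 12.8% with the block. In the cochlea 2 of 10 were higher (Nefm and Pou4f1), with sums of 1944 to 2144 CPM in mutants and 1363 to 1549 CPM in heterozygotes, and 4 were higher with the replicate block. Of all tested cochlear genes 1.90% were called higher, or 4.21% with the block. No marker of the list was at 0 throughout, and Prph, which marks a class of ganglion neurons, averaged 1.18 CPM in mutant and 0.403 CPM in heterozygous vestibule. Other marker sums were lower in mutant vestibule. Schwann and satellite glia markers summed to 206 to 236 CPM in mutants and 319 to 390 CPM in heterozygotes, and mesenchyme markers to 1082 to 1481 CPM in mutants and 1954 to 2572 CPM in heterozygotes. Of these, 1 of 9 glia markers and 2 of 10 mesenchyme markers were called lower, or 5 and 9 with the block. Supporting cell markers summed to 1074 to 1498 CPM in mutant and 1011 to 1920 CPM in heterozygous vestibule, with 0 of 10 called, or 1 higher and 5 lower with the block. The part of these cell types in the values of the 10 genes was not tested.

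The genes whose pattern over the 6 vestibular libraries was most like the mean of the 10, by Pearson's r of log2(CPM + 1), were Rtp1 (0.9995), Lhfpl1 (0.9991), Srgap1 (0.9983), Cstf2t (0.9982) and Sept3 (0.9982). With 3 libraries a genotype, r is set by the gap between genotypes, so it is a description only. Rtp1, a chaperone that brings odorant receptors to the cell surface, averaged 185 ± 5.73 CPM in mutant and 31.3 ± 3.07 CPM in heterozygous vestibule. Srgap1, a regulator of the actin cytoskeleton, had as close a likeness with a far smaller difference, 177 CPM in mutants and 137 CPM in heterozygotes (0.36, limma adjusted p = 0.116, and 0.00311 with the block).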

How the data were processed

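RNA bound to HA-tagged ribosomes was sequenced from vestibule and cochlea in 12 libraries, 3 per genotype and organ. The authors deposited CPM, 1 value per gene and library, per the file headers. TopHat and GRCm38 are named in the submitters' processing notes without versions, and the counting tool, strand setting, annotation and rule for listing genes are not given in the sources used here. Dividing each CPM by the value of 1 read gave a whole number within 1e-06 for 100% of values, so read counts were recovered. Between 0.119% and 0.729% of each total lay outside the listed genes. GENCODE M21 held 24709 of 24726 vestibular and 28317 of 28342 cochlear identifiers, and repeated symbols (8 and 16) were told apart by identifier.

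A gene entered the test of an organ when 3 or more of its 6 libraries reached 1 CPM. Mutants were set against heterozygotes with limma 3.58.1 (trend, two-sided) in R 4.3.3 on log2(CPM + 1), with Benjamini-Hochberg adjustment over all tested genes and a threshold of 0.05. The 10 genes and all lists were chosen with earlier results of these data known. Named genes were the 10, Gfi1, overlapping genes, nearest neighbours, up to 4 called genes per list by smallest p, and the 5 most alike in pattern. A marker on the ganglion neuron list is not reported here and was left out of its counts and sums. Same-numbered libraries deviated together, with correlations of 0.508 to 0.766 in the vestibule and 0.226 to 0.420 in the cochlea. Between libraries of unlike number these were -0.64 to 0.318 in the vestibule and -0.24 to 0.0127 in the cochlea. The numbers were therefore treated as pairs in the block, a pairing inferred from these values. Blocked values are printed beside the calls they change. The alternatives tried were a pseudocount of 0.25 or of 4, leaving out the filter or raising it to 5 CPM, median-of-ratios and TMM rescaling, edgeR 4.0.16 (quasi-likelihood) and DESeq2 1.42.0 on the recovered reads, the replicate block, each library left out, both vestibular replicate 1 or both cochlear replicate 3 libraries left out, and 1 fit of all 12 libraries. Scripts were tested on simulated data. Figures were drawn with matplotlib 3.10.9.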

Additional observations from a re-analysis of the deposited data

Results flagged for a closer look

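The genotype difference of 6 of 90 genes outside the 10 (list genes, neighbours and overlapping genes) differed between organs, as an interaction term in 1 limma fit of the 12 libraries over 14674 genes, Benjamini-Hochberg adjusted, where 461 of those genes (3.14%) were called. Values are the cochlear change minus the vestibular change on the log2(CPM + 1) scale. An effect of the library kit on the size of a change is not removed by this difference, and its part was not tested. Maob differed by 2.48 (SE 0.37, adjusted p = 0.00117), lower in mutant vestibule and without a call in the cochlea. Slc18a2, the vesicular monoamine transporter, differed by 1.44 (SE 0.36, adjusted p = 0.0413), with means of 3.12 CPM in mutant and 9.82 CPM in heterozygous vestibule (-1.43, adjusted p = 0.0507, and 0.000311 with the replicate block). Dgkg differed by -1.90 (SE 0.26, adjusted p = 0.000758), lower in mutant cochlea. Usp29 differed by 2.04 (SE 0.42, adjusted p = 0.0128) and Plagl1 by 2.02 (SE 0.33, adjusted p = 0.00241), both higher in mutant cochlea. Racgap1 differed by 0.96 (SE 0.20, adjusted p = 0.0151), also higher in mutant cochlea.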

How the results depend on the processing

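Of the 10 genes 6 were called in the cochlea under both pseudocounts, both rescalings, edgeR, DESeq2 and the replicate block, 5 without a filter, 5 of 6 tested at 5 CPM, 5 without both replicate 3 libraries, and 7, with Lix1 (adjusted p = 0.0388), in the fit of all 12 libraries. Leaving out 1 library gave 3 to 6. Nap1l5 also lost its call without a filter (0.101) and Aqp6 without both replicate 3 libraries (0.0975). Gpr149 in the cochlea ran from -0.35 to 0.05 with 1 library left out, changing sign to 0.00 without heterozygote replicate 2 and to 0.05 without mutant replicate 3, never past the threshold. The block, which uses the pairing of replicate numbers, raised genes called from 546 to 3634 in the vestibule and from 794 to 1532 in the cochlea, and list genes called in the vestibule from 4 to 27. It changed no call of the 10 genes in the cochlea. Vestibular genes called were 358 without a filter, 1234 by DESeq2, 524 by edgeR and 863 without both replicate 1 libraries, and list genes 11 by DESeq2, 10 without both replicate 1 libraries and 7 in the fit of all libraries. With 1 library left out, genes called ran from 226 to 522 in the vestibule and from 546 to 801 in the cochlea, and list genes from 3 to 4 and from 6 to 9. By edgeR 813 cochlear genes were called. Vestibular differences of the 10 genes stayed positive in all 17 alternatives, and without both replicate 1 libraries ran from 2.40 to 5.19 with a median of 3.84. Rescaling moved the median of all genes by less than 0.1. In the cochlea Aqp6, Tdo2, Gpr149 and Lix1 had under 30 reads in every library, and the part of depth in their calls was not tested. The causes of these shifts were not tested.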
